A study of Mus musculus with 24 samples.

Results

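Chemokines are small secreted proteins that direct the movement of leukocytes, and the genes described here are the CC and CXC chemokine ligands (Ccl and Cxcl symbols) and their receptors (Ccr and Cxcr symbols) of the mouse. The family was taken by symbol, keeping every gene with at least 1 TPM (transcripts scaled to the same sum in every library) in 2 or more libraries of any of the 4 expression tables. Of 53 symbols of this form, 47 were kept, 33 ligands and 14 receptors, out of 24970 symbols in all, and 41 of them reached 5 TPM in that many libraries. The 6 that were not kept were Ccl21b and Ccl26, listed at 0 in all 24 libraries, and Ccl27b, Ccr3, Ccr10 and Cxcl11. Just inside the threshold lay Ccr9 and Ccr4, whose highest values were 1.53 and 1.74 TPM, and just outside it lay Ccr10, with 1 library at 1.51 TPM, and Ccl27b, with 1 library at 1.07 TPM.

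The study compared control mice with mice that lose 3 microRNA genes (let-7a, let-7f, let-7d) in AT2 cells, the alveolar type 2 cells of the lung. AT2 cells line the alveoli and make surfactant. Controls had the genotype Sftpc-CreER/+; R26-tdT/+, and knockouts the genotype let7afd-/-;Sftpc-CreER/+; R26-tdT/+. All mice, controls included, therefore carried a Cre recombinase that tamoxifen switches on under the surfactant protein C gene, which is active in AT2 cells, together with a tdTomato reporter, and all received tamoxifen. In whole lung, every cell type other than AT2 is thus read beside cells that carry the deletion. Sorted AT2 cells were taken after 6 days of tamoxifen from pools of 3 mice (3 libraries per genotype), and the labels do not spell out whether the 3 libraries are separate pools, so that p-values there measure only the spread between the libraries. Whole lungs came from mice on tamoxifen for 6 days (n = 3 of each genotype) and from mice on booster tamoxifen for 6 months (n = 4 of each genotype). AT2 organoids, which are cultures of AT2 cells in 3 dimensions, were grown for 14 days from 2 mice of each genotype that had received 6 days of tamoxifen. The labels used here name no age, sex or strain.

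The deleted microRNAs share the seed GAGGUAG at bases 2 to 8, the stretch that pairs with target transcripts. They are shown because the deletion removes them, 5′ to 3′ with the seed in capitals, from RefSeq on GRCm38.p6, where all 3 lie on the minus strand of chromosome 13:
let-7a-5p (chr13:48538239-48538260): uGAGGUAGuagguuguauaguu
let-7f-5p (chr13:48537889-48537910): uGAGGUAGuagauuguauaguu
let-7d-5p (chr13:48536078-48536099): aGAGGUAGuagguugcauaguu
Mature microRNAs carry no poly(A) tail and are not measured here, so the tables do not check the genotype.

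As background, chemokine receptors are G protein-coupled receptors on leukocytes and some other cells, and each ligand acts through only some of them. CCR2 and its ligands bring monocytes into tissue, CCR1 acts on monocytes, macrophages and lymphocytes, CXCR2 and the ligands that bind it recruit neutrophils, and CCR7 with CCL19 and CCL21 guides dendritic cells and T cells through lymphatic vessels. Many ligand genes are switched on by inflammatory signalling through NF-kB, while others, such as Cxcl12 and Ccl21a, are made constantly by stromal or endothelial cells.

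Each sample kind was read against marker lists for other cell types. In sorted AT2 libraries 9 AT2 genes summed to 238796 to 254215 TPM in controls and 151254 to 223299 TPM in knockouts, 5 pan-leukocyte genes to 7.25 to 26.4 TPM in controls and 37.2 to 68.3 TPM in knockouts, and 12 alveolar macrophage genes to 41.3 to 76.3 TPM in controls and 164 to 315 TPM in knockouts. In whole lung the alveolar macrophage sum was 1624 to 1837 TPM in controls and 4078 to 13995 TPM in knockouts at 6 days, and 791 to 1065 TPM in controls and 4944 to 8596 TPM in knockouts at 6 months. A list of 10 interstitial macrophage and monocyte genes gave 685 to 1006 TPM in controls and 1395 to 2051 TPM in knockouts at 6 days, and 464 to 653 TPM in controls and 1856 to 2125 TPM in knockouts at 6 months. Erythrocyte markers at 6 days ran from 8786 to 32294 TPM in controls and from 12841 to 84804 TPM in knockouts, with knockout 3 highest. In organoids the pan-leukocyte sum was 1.00 to 1.39 TPM in controls and 1.79 to 2.92 TPM in knockouts. In the control organoids Chil3, Siglecf and Fabp4 of the alveolar macrophage list were listed at 0. In knockout organoids 0 of the 12 genes of that list were at 0 in all libraries. The organoid controls differed from each other in AT2 marker sum, with 45496 and 14548 TPM, and the knockouts had 78804 and 71777 TPM. In whole lung, more cells of a type and more RNA per cell cannot be told apart, here and in all that follows. No read numbers can be had from TPM, and depth is therefore unknown.

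In control samples one ligand stood far above the others. Cxcl15, a CXC chemokine made by lung epithelium and also called lungkine, was at 9712 ± 657 TPM (SD, n = 3) in sorted AT2 cells, 97.0% of the summed TPM of all ligands, and at 1707 ± 116 and 1168 ± 45.8 TPM in whole lung at 6 days (n = 3) and 6 months (n = 4), which were 55.0% and 48.5% of the sum. In control organoids it was at 4824 and 1513 TPM, the pair lying far apart. After it in sorted AT2 cells came Cxcl17, an epithelial chemokine of mucosal surfaces (114 ± 40.9 TPM), Cxcl16, a transmembrane ligand of CXCR6 (83.4 ± 13.2 TPM), the neutrophil attractant Cxcl1 (36.4 ± 10.7 TPM) and Ccl27a, a ligand of CCR10 (14.8 ± 3.45 TPM). The ranges of Cxcl17 and Cxcl16 overlapped. Control organoids had another order, with the neutrophil attractants Cxcl5 (1066 and 252 TPM) and Cxcl3 (331 and 64.6 TPM), the CCR6 ligand Ccl20 (262 and 199 TPM) and Cxcl1 (132 and 56.7 TPM) next after Cxcl15. Whole lung had Ccl21a, Ccl6, Cxcl12 and Ccl5 next at both times, in differing order. In control lungs at 6 months these were 245 to 348 TPM for Ccl21a, 135 to 232 TPM for Ccl5, 127 to 160.3 TPM for Cxcl12 and 112 to 141 TPM for Ccl6, the last 3 with overlapping ranges. Tables were made separately, and levels were not tested between them.

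Cxcr4, the receptor of CXCL12, was the highest receptor in every kind of control sample, at 7.46 ± 2.26 TPM in sorted AT2 cells, 90.3 ± 10.8 and 83.8 ± 7.41 TPM in whole lung at 6 days and 6 months, and 2.56 and 9.21 TPM in the 2 control organoid libraries. In control lungs at 6 days Ccr2, the monocyte receptor for CCL2, followed at 39.3 ± 4.20 TPM, and Ccr1 stood at 14.5 ± 1.62 and Ccr7 at 12.1 ± 3.87 TPM, with overlapping ranges. At 6 months Ccr2 stood at 25.9 ± 2.33, Ccr7 at 21.7 ± 4.57, Cxcr5 at 14.5 ± 1.85 and Cxcr6 at 10.7 ± 1.41 TPM, and only the ranges of Ccr2 and Ccr7 among these neighbours overlapped. In sorted AT2 cells and organoids Cxcr4 was the only receptor that passed the filter for testing. The other 13 receptors stayed at or below 1.41 TPM in sorted AT2 libraries and 0.849 TPM in organoids.

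The summed TPM of all ligands was higher in every knockout lung than in any control lung at both times, and the members that rose at both times included CC ligands of macrophages and monocytes and the receptor Ccr1. At 6 days, 8 of 32 tested ligands rose and 0 fell, and 2 of 12 tested receptors rose and 0 fell, where 3.16% of all 14154 tested genes rose and 3.79% fell (6.95% in either direction). At 6 months, 15 of 29 tested ligands rose and 3 fell, and 4 of 14 receptors rose and 1 fell, where 15.9% of 14177 tested genes rose and 13.9% fell (29.8% in either direction). Without overlap of the genotypes, 12 ligands lay higher and 2 lower at 6 days, beside 12.5% and 23.7% of all tested genes (36.2% in all). At 6 months these were 13 and 2 ligands, beside 16.4% and 14.2% of genes (30.6% in all). The median log2 fold change of the tested ligands was 0.60 at 6 days and 0.73 at 6 months, beside −0.14 and −0.0048 for all tested genes. Median-ratio scaling moved the median of all genes at 6 days to 0.0020. The share of higher calls among all genes at 6 months was 53.5%, and 42.5% after quantile normalization. In limma at unadjusted p under 0.05, 13 ligands were higher and 4 lower at 6 days, and 3 receptors were higher and 0 lower. The sum over all ligands was 2863 to 3271 TPM in controls and 3822 to 5038 TPM in knockouts at 6 days, and 2327 to 2541 TPM in controls and 4569 to 5698 TPM in knockouts at 6 months. Ccl6 alone made up 6.66% of the summed mean in controls and 20.5% in knockouts at 6 days, and 5.07% and 39.8% at 6 months. Here and below, a gene rose or fell if it passed an adjusted p of 0.05 in limma on log2(TPM + 1), knockout against control, a scale that understates the change of genes with few TPM. Counts over gene and marker lists are to be read beside the shares of all tested genes in the same comparison. Of the 10 members that passed at 6 days and the 23 that passed at 6 months, 7 were shared, among them Ccl2, Ccl3, Ccl6, Ccl9, Ccl12 and Ccr1, which is 7 of 10 and 7 of 23. All 10 member calls at 6 days failed when control 1 or control 3 was left out, and 2 of 10 remained without knockout 2. At 6 months 17 of 23 calls held whichever library was left out.

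**Figure D1:**
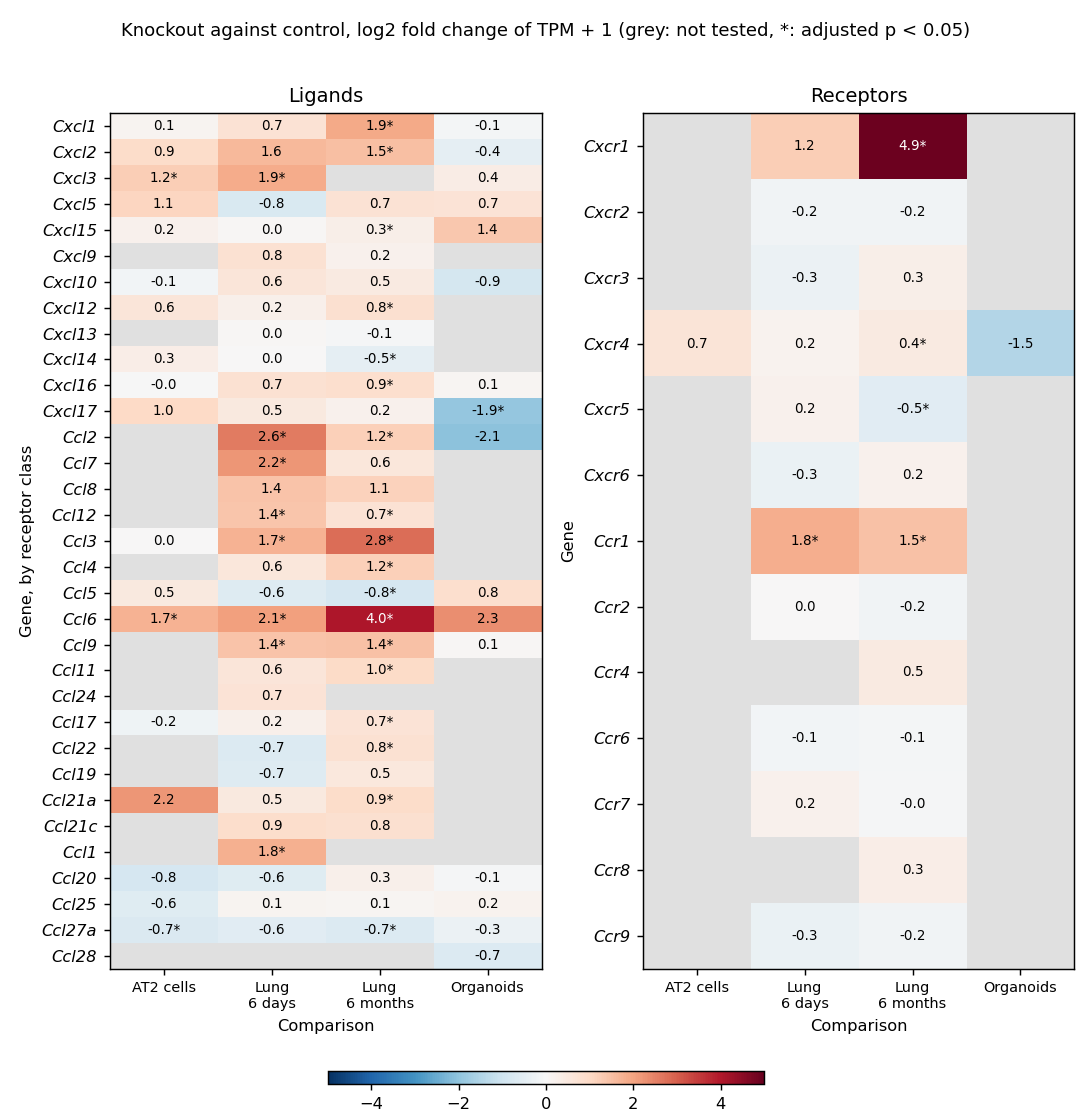
Log2 fold change of TPM + 1, knockout against control, for members (rows, grouped by class) in the 4 comparisons (columns). Colour gives the fold change, grey marks members below the filter, and a star marks an adjusted p under 0.05. Most stars lie in the 2 lung columns on red cells, while the AT2 and organoid columns hold 3 stars and 1 star.

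Among the neighbouring genes Ccl5, Ccl9, Ccl6, Ccl3 and Ccl4, Ccl6 had the largest rise. Ccl6, a CCR1 ligand known from rodents and made by macrophages and other myeloid cells (chr11:83587882-83593087 on GRCm38), was at 219, 247 and 154 TPM in controls and 846, 551 and 1312 TPM in knockouts at 6 days, and the genotypes did not overlap (log2 fold change 2.06 ± 0.31 SE, adjusted p 0.011). At 6 months it was at 120.1, 112, 141 and 116 TPM in controls and 1791, 2500.2, 2136 and 1703 TPM in knockouts (log2 fold change 4.04 ± 0.11 SE, adjusted p 1.66e-09), a mean 16.6 times the control mean, and again the genotypes did not overlap. In the knockout lungs at 6 months Ccl6 was the highest ligand, above Cxcl15. The rise on the log2 scale was larger at 6 months than at 6 days by 1.98 ± 0.33 SE, adjusted p 0.0105, 1 of 2 members past that test among 41 tested (2.73% of 13875 genes passed it). The sum of alveolar macrophage markers given above was higher in the same knockout lungs, though not every marker rose. At 6 days 5 of the 12 markers rose, 1 fell and 6 did not pass, and at 6 months 9 rose and 1 fell. The part of these cells in the rise of Ccl6 was not tested.

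The neighbours of Ccl6 moved less. Ccl9, a second rodent ligand of CCR1, was at 23.4, 49.8 and 20.3 TPM in controls and 78.4, 59.4 and 106 TPM in knockouts at 6 days (log2 fold change 1.43 ± 0.34 SE, adjusted p 0.0467). At 6 months Ccl9 was at 11.4, 11.3, 12.0 and 14.4 TPM in controls and 41.8, 30.8, 42.2 and 27.7 TPM in knockouts (log2 fold change 1.45 ± 0.14 SE, adjusted p 1.56e-05). Ccl3, which binds CCR1 and is released by activated macrophages, was at 8.05, 19.5 and 4.90 TPM in controls and 26.9, 41.4 and 32.6 TPM in knockouts at 6 days (log2 fold change 1.73 ± 0.41 SE, adjusted p 0.0462). At 6 months Ccl3 was at 2.81, 4.42, 7.75 and 5.10 TPM in controls and 48.7, 35.6, 30.5 and 42.0 TPM in knockouts (log2 fold change 2.78 ± 0.22 SE, adjusted p 3.93e-06). For both genes all knockout lungs lay above all control lungs at both times. At 6 days, of the fits with 1 library left out, only that without control 2 kept the call of Ccl9. Only those without control 2 or knockout 1 kept that of Ccl3. Both calls at 6 days were also lost with a pseudocount of 0.1, without the filter and at 5 TPM. That of Ccl9 was lost without the variance trend and with the replicate number as a block too. Ccl4, a CC ligand often made together with Ccl3, did not pass at 6 days and was at 2.46, 6.18, 2.93 and 6.78 TPM in controls and 8.52, 5.73, 26.3 and 10.5 TPM in knockouts at 6 months (log2 fold change 1.18 ± 0.40 SE, adjusted p 0.0436). Its genotypes overlapped, since knockout 2 lay below controls 2 and 4, and of the fits with 1 library left out, only those without control 4 or knockout 2 kept its call. It was also lost without the filter, without the variance trend and with library weights. Ccl5, made by T and natural killer cells, went the other way. It was at 135, 199, 155 and 232 TPM in controls and 117, 74.5, 106 and 105 TPM in knockouts at 6 months (log2 fold change −0.83 ± 0.17 SE, adjusted p 0.00356), with no overlap, and it missed the threshold at 6 days, at 169, 120.5 and 159.7 TPM in controls and 143, 91.6 and 64.0 TPM in knockouts (log2 fold change −0.65 ± 0.28 SE, adjusted p 0.199). Natural killer cell markers summed to 75.0 to 130.1 TPM in controls and 19.9 to 47.5 TPM in knockouts at 6 months, with 5 of 6 lower, and T cell markers to 57.0 to 103 TPM in controls and 65.9 to 84.2 TPM in knockouts. Their part in the fall of Ccl5 was not tested. Ccl5, Ccl9, Ccl6, Ccl3 and Ccl4 lie next to each other at chr11:83525778-83664683.

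The CCR2 ligands Ccl2, Ccl7 and Ccl12, which call monocytes out of blood, rose at 6 days, and Ccl2 and Ccl12 rose at 6 months too. Ccl2, the main monocyte attractant, was at 7.02, 31.5 and 6.72 TPM in controls and 44.3, 84.2 and 112 TPM in knockouts at 6 days (log2 fold change 2.59 ± 0.57 SE, adjusted p 0.0346). At 6 months Ccl2 was at 2.77, 5.05, 4.04 and 3.29 TPM in controls and 11.5, 6.22, 9.42 and 13.8 TPM in knockouts (log2 fold change 1.20 ± 0.21 SE, adjusted p 0.0014). Ccl12, a CCR2 ligand of mice, was at 7.06, 13.8 and 10.9 TPM in controls and 25.6, 26.2 and 35.4 TPM in knockouts at 6 days (log2 fold change 1.40 ± 0.25 SE, adjusted p 0.0184). At 6 months Ccl12 was at 3.02, 5.14, 6.19 and 6.89 TPM in controls and 8.70, 7.71, 12.2 and 8.44 TPM in knockouts (log2 fold change 0.73 ± 0.20 SE, adjusted p 0.0196). In neither gene did the genotypes overlap at either time, and the call of Ccl12 at 6 months failed only without knockout 3 (adjusted p 0.0501). Control 2 was the highest control at 6 days for Ccl2, Ccl12, Ccl3, Ccl7 and Ccl9. Ccl7, which binds CCR2 and CCR1, was at 4.44, 13.3 and 5.14 TPM in controls and 23.1, 31.8 and 57.1 TPM in knockouts at 6 days (log2 fold change 2.20 ± 0.43 SE, adjusted p 0.0233), and did not pass at 6 months (0.56 ± 0.25, adjusted p 0.123). Ccl8, grouped with these genes by sequence and in mice a ligand of CCR8, did not pass at 6 days (30.6, 49.6 and 19.8 TPM in controls and 85.7, 54.9 and 134 TPM in knockouts, 1.43 ± 0.39, adjusted p 0.0648) or at 6 months (19.0, 19.9, 11.7 and 63.5 TPM in controls and 59.7, 50.1, 29.6 and 85.1 TPM in knockouts, 1.14 ± 0.44, adjusted p 0.0743). At 6 months control 4 alone among the controls reached the knockout range of Ccl8, and knockout 4 was the highest knockout. Without control 4 Ccl8 passed (adjusted p 0.00334), but leaving out the highest control favours a rise. With the replicate number as a block in limma Ccl8 passed too (adjusted p 0.00075). The change of the knockout effect between 6 days and 6 months passed its test in limma for 0 of Ccl2, Ccl7, Ccl8 and Ccl12 (Ccl2 and Ccl7 were lower at unadjusted p under 0.05), and for Ccl2 it was −1.38 ± 0.61 SE, adjusted p 0.325. Ccl1, a ligand of CCR8 in the same gene block, was at 0.262, 1.26 and 0.323 TPM in controls and 8.74, 3.10 and 2.93 TPM in knockouts at 6 days (log2 fold change 1.79 ± 0.39 SE, adjusted p 0.0333), and at 6 months it stayed below the filter. Ccl2, Ccl7, Ccl11, Ccl12, Ccl8 and Ccl1 lie in that order at chr11:82035571-82305690.

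**Figure D2:**
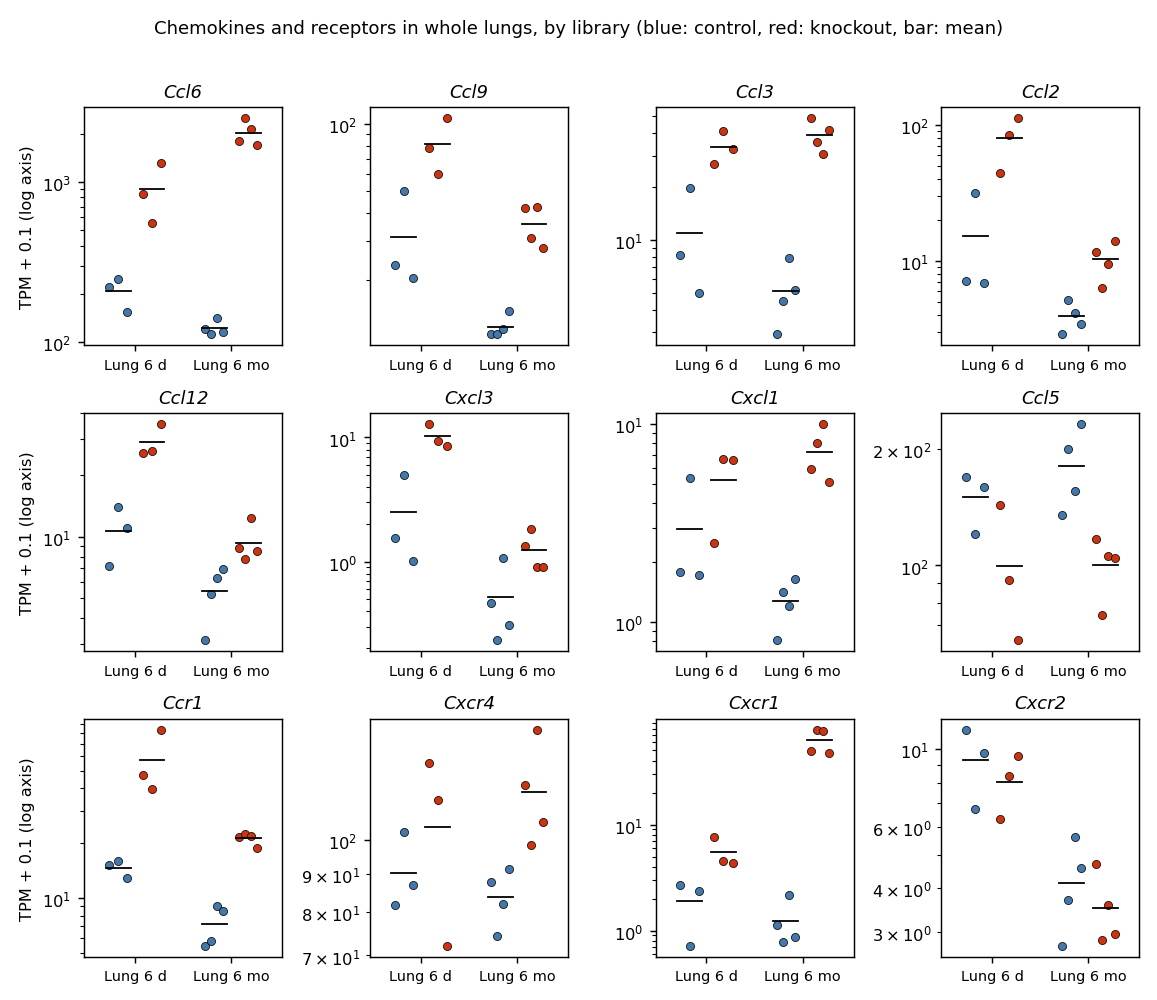
TPM of members in each whole lung library (points) by genotype at 6 days and 6 months, on a log axis of TPM + 0.1, with bars at the group means. At 6 months Ccl6 runs from 112 to 141 TPM in controls and from 1703 to 2500 TPM in knockouts, and Cxcr1 from 0.680 to 2.05 TPM and from 47.3 to 77.9 TPM.

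**Figure D3:**
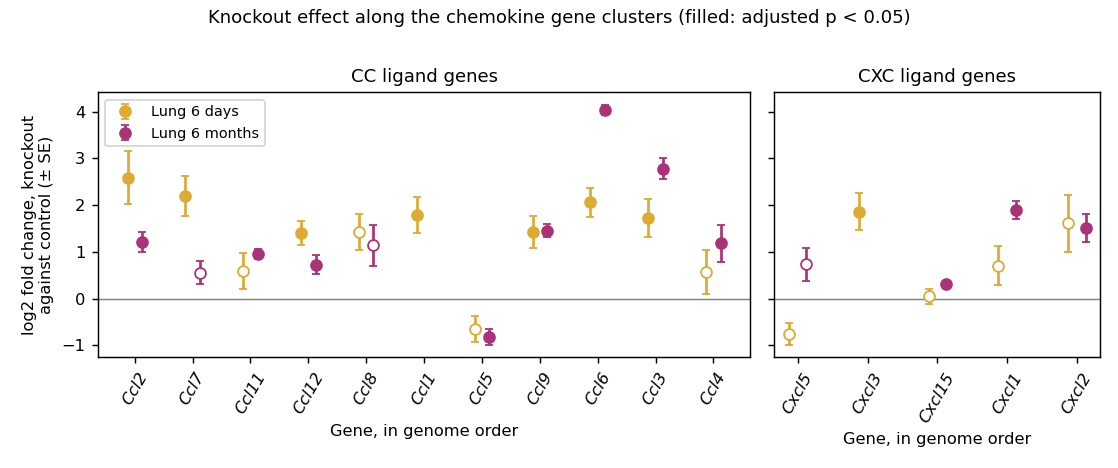
Log2 fold change with its SE, knockout against control, in whole lung at 6 days and 6 months for the clustered CC ligand genes and CXC ligand genes, placed in the order of the genes on their chromosome. Filled symbols passed an adjusted p of 0.05. Ccl6 and Ccl3 stand above their neighbour Ccl5, which lies below 0.

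The CXC ligands that attract neutrophils through CXCR2 were low in whole lung and rose in part. Cxcl1 was at 0.708, 1.32, 1.10 and 1.55 TPM in controls and 5.82, 7.97, 9.91 and 5.00 TPM in knockouts at 6 months (log2 fold change 1.89 ± 0.20 SE, adjusted p 3.10e-05), and did not pass at 6 days. Cxcl2 was at 0.552, 0, 0.509 and 0.288 TPM in controls and 2.62, 2.23, 6.17 and 1.34 TPM in knockouts at 6 months (log2 fold change 1.51 ± 0.30 SE, adjusted p 0.00274). Cxcl3 passed at 6 days, with 1.46, 4.92 and 0.904 TPM in controls and 12.7, 9.28 and 8.43 TPM in knockouts (log2 fold change 1.86 ± 0.40 SE, adjusted p 0.0321), and was below the filter at 6 months. All 3 calls came without overlap of the genotypes. Cxcl5, the neutrophil attractant of lung epithelium, did not pass in any comparison, though at 6 days every knockout lung lay below every control lung, with 7.90, 8.97 and 7.65 TPM in controls and 5.26, 2.90 and 5.60 TPM in knockouts (−0.75 ± 0.24, adjusted p 0.0962). Cxcl15 was at 1182, 1144, 1225 and 1121 TPM in controls and 1568, 1576, 1386 and 1259.6 TPM in knockouts at 6 months (log2 fold change 0.30 ± 0.072 SE, adjusted p 0.00826), a rise that failed after quantile normalization. AT2 markers summed to 28526 to 30548 TPM in controls and 38754 to 47031 TPM in knockouts at 6 months, where 6 of 9 rose, and to 46552 to 53570.0 TPM in controls and 28151 to 36306 TPM in knockouts at 6 days, where 2 of 9 fell. Their part in the values of Cxcl15 and Cxcl5 was not tested. The neutrophil marker sum was 327 to 577 TPM in controls and 336 to 562 TPM in knockouts at 6 months, and 1 of 6 tested neutrophil markers passed.

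The promoters of Cxcl1, Cxcl2 and Cxcl3 share a copy of the motif that NF-kB binds. Promoters here are RefSeq windows of 250 bases before to 50 after the start site (GRCm38.p6), and the NF-kB consensus was searched on both strands, where near-palindromes match more than once. It was found in 10 of 34 members with a promoter in the table, and in 9.55% of 27025 genes. The 30 bases around each motif are shown because these genes of 1 block are compared side by side, with the motif in capitals:
Cxcl1 (chr5:90890995-90891294, + strand, motif from base -71): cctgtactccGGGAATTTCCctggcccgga
Cxcl2 (chr5:90903649-90903948, + strand, motif from base -97): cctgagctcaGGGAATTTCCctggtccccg
Cxcl3 (chr5:90785851-90786150, + strand, motif from base -73): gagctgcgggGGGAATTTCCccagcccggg
The match is a description of the letters. The AP-1 motif TGANTCA was found in 6 of 34 members and 8.97% of genes, and TATAAA in 9 of 34 members and 9.77% of genes. Cxcl5, Cxcl3, Cxcl15, Cxcl1 and Cxcl2 lie together at chr5:90759360-90905938.

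Of NF-kB and cytokine genes, 1 of 17 tested rose at 6 days, Il6 (2.06 ± 0.45, adjusted p 0.0345), beside 3.16% of all tested genes. At 6 months 4 of 16 rose and 1 fell, beside 15.9% and 13.9% of all tested genes. Those that rose were the cytokines Il1a (1.16 ± 0.14, adjusted p 9.92e-05) and Tnf (1.09 ± 0.29, adjusted p 0.0138), the NF-kB inhibitor Tnfaip3 (0.72 ± 0.16, adjusted p 0.00671) and the subunit gene Relb (0.36 ± 0.095, adjusted p 0.0141). Another subunit gene, Rela, fell (−0.22 ± 0.048, adjusted p 0.00447). The ligands of CXCR3, which interferon-gamma induces, did not pass where tested. Cxcl10 was at 3.72, 5.65, 5.10 and 8.02 TPM in controls and 3.97, 4.55, 12.9 and 14.8 TPM in knockouts at 6 months, and the genotypes overlapped. Exons of Cxcl10 overlap Art3 on the opposite strand, in libraries that did not keep the strand.

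Cxcl12 and Ccl21a rose at 6 months. Cxcl12, made by fibroblasts and endothelium, was at 127, 142, 152 and 160.3 TPM in controls and 265, 257, 239.6 and 249.5 TPM in knockouts (log2 fold change 0.80 ± 0.071 SE, adjusted p 8.58e-06). Ccl21a, made by lymphatic endothelium, was at 348, 245, 301 and 295 TPM in controls and 592, 591, 554 and 480.0 TPM in knockouts (log2 fold change 0.90 ± 0.10 SE, adjusted p 4.90e-05). For both genes every knockout lung lay above every control lung. Ccl21a has near-identical copies listed apart, Ccl21b, at 0 in all libraries, and Ccl21c, so the split of reads between them is uncertain. The sum of Ccl21a and Ccl21c was 283 to 404 TPM in controls and 544 to 675 TPM in knockouts. Ccl19, the other ligand of CCR7, did not pass (9.36, 11.3, 12.5 and 43.0 TPM in controls and 19.1, 16.7, 22.1 and 39.0 TPM in knockouts), and control 4 was its highest control.

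The CCR4 ligands Ccl22 and Ccl17 and the CCR3 ligand Ccl11 rose at 6 months. Ccl22, made by dendritic cells and macrophages, was at 15.6, 19.2, 12.3 and 19.6 TPM in controls and 28.5, 27.4, 26.0 and 32.9 TPM in knockouts (log2 fold change 0.76 ± 0.13 SE, adjusted p 0.00129), without overlap. Ccl17, the second CCR4 ligand, was at 24.7, 45.2, 20.0 and 26.9 TPM in controls and 49.5, 53.1, 33.7 and 45.5 TPM in knockouts (log2 fold change 0.66 ± 0.21 SE, adjusted p 0.0369), with control 2 inside the knockout range, and of the fits with 1 library left out, only those without control 2 or knockout 3 kept its call. It was also lost without the filter, after either scaling and without the variance trend. Ccl11, the eosinophil attractant eotaxin, was at 4.73, 6.09, 5.79 and 6.04 TPM in controls and 13.7, 12.4, 11.4 and 10.4 TPM in knockouts (log2 fold change 0.96 ± 0.11 SE, adjusted p 7.13e-05), without overlap. At 6 days Ccl17 (0.24 ± 0.41, adjusted p 0.731) and Ccl11 (0.59 ± 0.38, adjusted p 0.35) did not pass. Ccl22 had a negative value there (−0.67 ± 0.33, adjusted p 0.237), which passed with library weights (adjusted p 0.0046). Its change of effect between the times did not pass (1.44 ± 0.35 SE, adjusted p 0.0586). Ccl24, another eotaxin, did not pass at 6 days and was below the filter at 6 months. Of 6 dendritic cell markers 3 rose and 2 fell at 6 months, and of 3 tested eosinophil, basophil and mast cell markers 0 passed (1 higher and 1 lower at unadjusted p under 0.05 in limma).

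Cxcl16, the CXCR6 ligand, was at 73.8, 75.3, 53.4 and 82.2 TPM in controls and 138, 121, 126 and 129 TPM in knockouts at 6 months (log2 fold change 0.86 ± 0.11 SE, adjusted p 0.00017). At 6 days it was at 71.4, 113 and 74.2 TPM in controls and 174, 149 and 109 TPM in knockouts (0.74 ± 0.23, adjusted p 0.0961). There it passed after median-ratio scaling, after quantile normalization, with library weights and without knockout 3 (adjusted p 0.0261). Exons of Cxcl16 overlap Zmynd15 on the opposite strand, so that reads of the pair cannot be told apart. Cxcl14, a chemokine of epithelium and fibroblasts, fell, with 116, 109, 132 and 123 TPM in controls and 81.7, 87.7, 79.3 and 97.9 TPM in knockouts (log2 fold change −0.47 ± 0.079 SE, adjusted p 0.000996) and no overlap. Ccl27a was lower too, with 12.6, 14.3, 15.1 and 9.34 TPM in controls and 9.70, 8.26, 8.65 and 4.34 TPM in knockouts (log2 fold change −0.69 ± 0.21 SE, adjusted p 0.0293), and control 4 lay below knockout 1. This call failed without control 1, 2 or 3 and without the filter. Ccl27a has a near-identical copy (Ccl27b) and overlaps Il11ra1 on the opposite strand, so its reads are uncertain. Of 6 fibroblast markers 1 rose and 2 fell, and 6 of 6 endothelial markers fell. Their part in these values was not tested.

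Among receptors, Cxcr1 showed the largest log2 fold change of any member in the 4 comparisons. Cxcr1, a neutrophil receptor of CXC ligands in humans and the neighbour of Cxcr2 at chr1:74153989-74194631, was at 1.04, 0.680, 2.05 and 0.777 TPM in controls and 49.7, 77.9, 76.7 and 47.3 TPM in knockouts at 6 months (log2 fold change 4.91 ± 0.22 SE, adjusted p 3.50e-08). At 6 days it was at 2.58, 0.616 and 2.24 TPM in controls and 7.48, 4.43 and 4.26 TPM in knockouts (1.23 ± 0.34, adjusted p 0.0674), with no overlap of the genotypes but short of the threshold. The effect at 6 months exceeded that at 6 days by 3.68 ± 0.40 SE, adjusted p 0.000265. Cxcr2, the main neutrophil receptor of mice, stood beside it at 2.64, 3.62, 5.50 and 4.47 TPM in controls and 4.60, 2.74, 3.48 and 2.86 TPM in knockouts at 6 months, with overlapping genotypes and no call at either time. The neutrophil marker sums given above overlapped between the lungs at 6 months. Of 6 tested neutrophil markers, 3 were higher and 0 lower at unadjusted p under 0.05 in limma. The sums of several other lists did not overlap, among them alveolar macrophages, interstitial macrophages and monocytes, and AT2 cells. The part of any of these cells in the Cxcr1 values was not tested. In sorted AT2 cells Cxcr1 was at 0.197, 0.168 and 0.270 TPM in controls and 0.347, 0 and 0.165 TPM in knockouts.

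Ccr1, a receptor of the macrophage ligands, rose at both times. It was at 15.0, 15.8 and 12.7 TPM in controls and 47.3, 39.7 and 83.2 TPM in knockouts at 6 days (log2 fold change 1.83 ± 0.27 SE, adjusted p 0.0103). At 6 months Ccr1 was at 5.36, 5.72, 8.98 and 8.41 TPM in controls and 21.6, 22.3, 21.7 and 18.8 TPM in knockouts (log2 fold change 1.47 ± 0.15 SE, adjusted p 2.23e-05). The genotypes did not overlap for Ccr1 at either time. Ccr2 did not pass at either time, with 44.1, 36.2 and 37.6 TPM in controls and 65.1, 39.4 and 24.8 TPM in knockouts at 6 days and 26.1, 22.7, 26.7 and 28.2 TPM in controls and 26.3, 18.8, 23.0 and 23.2 TPM in knockouts at 6 months. Cxcr4 was at 87.6, 74.3, 82.0 and 91.4 TPM in controls and 118, 98.3, 140.0 and 106 TPM in knockouts at 6 months (log2 fold change 0.45 ± 0.10 SE, adjusted p 0.00699), without overlap. Cxcr5, the B cell receptor for CXCL13, was at 14.6, 12.9, 13.5 and 17.1 TPM in controls and 14.2, 7.61, 7.18 and 10.6 TPM in knockouts (log2 fold change −0.55 ± 0.18 SE, adjusted p 0.0404). Knockout 1 lay inside the control range, Bcl9l overlaps Cxcr5 on the opposite strand, and of the fits with 1 library left out, only that without knockout 1 kept the call. It was also lost without the filter, without the variance trend and with library weights. Ccr6, Ccr7, Ccr9, Cxcr3 and Cxcr6 did not pass in either lung comparison, and Ccr4 and Ccr8, below the filter at 6 days, did not pass at 6 months.

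In sorted AT2 cells 2 of 18 tested ligands rose (Ccl6 and Cxcl3) and 1 fell (Ccl27a), where 6.62% of 12109 tested genes rose and 1.22% fell (7.85% in either direction). Without overlap of the genotypes, 3 ligands lay higher and 2 lower, beside 25.4% and 8.31% of tested genes (33.7% in all). Of all calls 84.4% were higher, 67.3% with median-ratio scaling and 65.1% with quantile normalization. Ccl6 was at 8.07, 4.29 and 10.4 TPM in controls and 33.1, 19.7 and 28.5 TPM in knockouts (log2 fold change 1.75 ± 0.29 SE, adjusted p 0.0153), and the knockout mean was 3.57 times the control mean. Cxcl3 was at 3.95, 5.22 and 7.90 TPM in controls and 11.8, 12.9 and 18.3 TPM in knockouts (log2 fold change 1.22 ± 0.23 SE, adjusted p 0.0254). Ccl27a was at 15.8, 17.7 and 11.0 TPM in controls and 9.19, 8.75 and 7.69 TPM in knockouts (log2 fold change −0.71 ± 0.17 SE, adjusted p 0.0426). For all 3 the genotypes did not overlap. Each call failed without at least 1 library, Ccl6 without knockout 3 (adjusted p 0.0591), Cxcl3 without control 1, control 2 or knockout 3, and Ccl27a without any library but control 3. The calls of Cxcl3 and Ccl27a also failed without the filter, and that of Ccl27a without the variance trend. The pan-leukocyte and alveolar macrophage sums given above were higher in the same knockout pools, where 2 of 5 and 5 of 10 tested markers passed, and their part in the Ccl6 values was not tested.

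The other ligands of note in AT2 cells did not pass. Cxcl17 was at 111, 74.9 and 156 TPM in controls and 315, 166 and 203 TPM in knockouts (1.00 ± 0.29, adjusted p 0.0762), with no overlap. Cxcl2 was at 7.88, 5.12 and 11.1 TPM in controls and 9.90, 13.0 and 27.8 TPM in knockouts (0.91 ± 0.37, adjusted p 0.156) and Cxcl5 at 3.89, 1.15 and 8.09 TPM in controls and 7.97, 5.59 and 13.8 TPM in knockouts (1.06 ± 0.50, adjusted p 0.209), both overlapping. Cxcl1 overlapped too, at 29.4, 31.0 and 48.7 TPM in controls and 32.7, 36.5 and 50.3 TPM in knockouts. Cxcl15 was at 10117, 8954 and 10064 TPM in controls and 9845, 11713 and 12374 TPM in knockouts (0.22 ± 0.24, adjusted p 0.592). Ccl21a was at 9.49, 1.32 and 0.936 TPM in controls and 23.0, 7.85 and 20.5 TPM in knockouts (2.20 ± 0.64, adjusted p 0.0744), while its copy Ccl21c was at 7.52, 1.84 and 0 TPM in controls and 0, 0 and 0 TPM in knockouts, and the sum of both overlapped between genotypes (0.936 to 17.0 and 7.85 to 23.0 TPM). Ccl2, Ccl7 and Ccl12, which rose in whole lung at 6 days, and Ccl8, which did not pass there, were under the filter in sorted AT2 cells of the same time. Ccl2 was at 1.14, 0.989 and 0.356 TPM in controls and 0.537, 0.515 and 1.58 TPM in knockouts, and Ccl7, Ccl8 and Ccl12 were at 0 to 1.14 TPM. Of 19 members tested in both, 0 differed in their knockout effect between whole lung at 6 days and sorted AT2 cells (1.06% of 11766 genes did), with 3 higher and 2 lower at unadjusted p under 0.05 in limma. Of NF-kB and cytokine genes 1 of 16 rose in sorted AT2 cells, Il1b (1.46 ± 0.35, adjusted p 0.045), beside 6.62% of all tested genes.

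**Figure D4:**
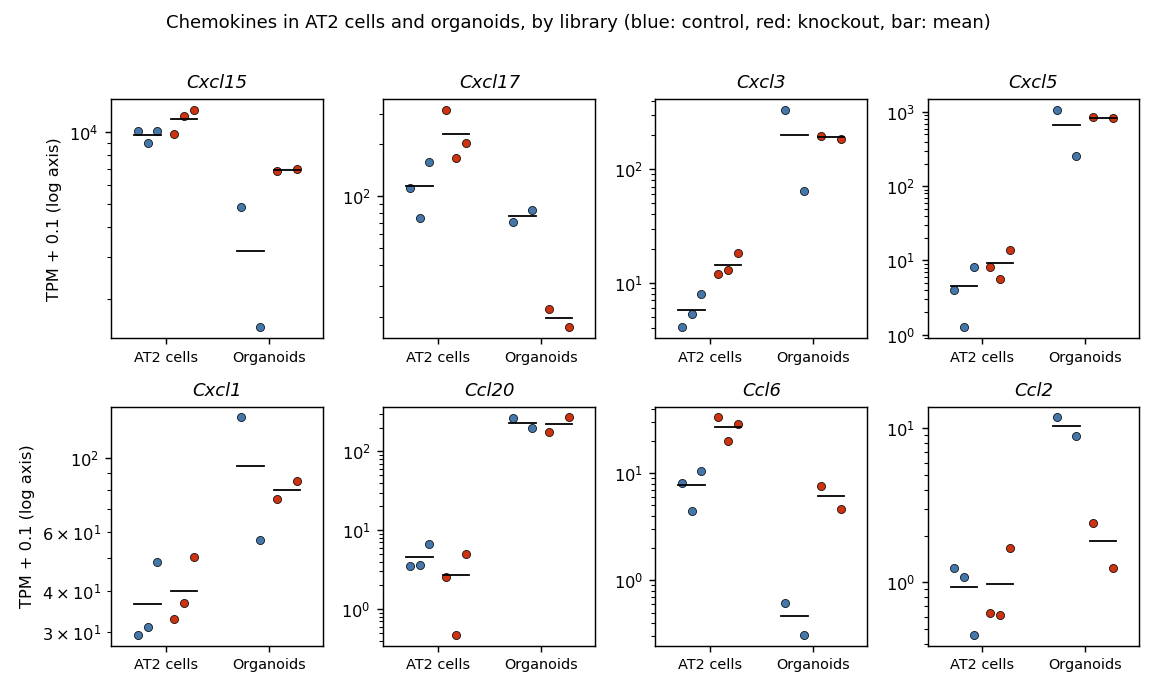
TPM of members in each sorted AT2 and organoid library (points) by genotype, on a log axis of TPM + 0.1, with bars at the group means. Cxcl17 lies at 166 to 315 TPM in knockout AT2 pools and 17.2 to 22.1 TPM in knockout organoids, on opposite sides of its controls.

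In organoids 0 of 16 tested ligands rose and 1 fell, where 0.218% of 12406 tested genes rose and 0.387% fell (0.605% in either direction). Of all calls 36.0% were higher, against 46.8% after quantile normalization. With 2 libraries per genotype, 71.7% of all tested genes did not overlap between genotypes (39.6% higher and 32% lower in knockouts), and of the ligands 4 lay higher and 5 lower. Cxcl17 fell, with 70.5 and 83.3 TPM in controls and 22.1 and 17.2 TPM in knockouts (log2 fold change −1.92 ± 0.17 SE, adjusted p 0.046). The call failed without either knockout, without the filter and after both scalings. The effect of the knockout on Cxcl17 differed between organoids and sorted AT2 cells by −2.93 ± 0.34 SE, adjusted p 0.000803, the only 1 of 14 members past this test, which 9.29% of 11351 genes passed. Club cell markers summed to 8482 to 11857 TPM in control and 2268 to 2652 TPM in knockout organoids. Of 4 tested, 1 fell, Scgb3a1 (−2.25 ± 0.21, adjusted p 0.0474). In sorted AT2 cells the sum was 3043 to 13788 TPM in controls and 2340 to 5158 TPM in knockouts. The part of these cells in the Cxcl17 values was not tested. In limma at unadjusted p under 0.05, 2 of the 16 ligands were higher and 4 lower in organoids.

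Ccl6 in organoids was at 0.510 and 0.209 TPM in controls and 7.43 and 4.56 TPM in knockouts (2.34 ± 0.28, adjusted p 0.0567) and Ccl2 at 11.7 and 8.76 TPM in controls and 2.35 and 1.15 TPM in knockouts (−2.05 ± 0.29, adjusted p 0.06), neither of which passed. The 12 alveolar macrophage markers summed to 13.7 to 15.8 TPM in control and 24.4 to 28.0 TPM in knockout organoids. Of 4 tested, 0 passed in limma, while at unadjusted p under 0.05 Marco, Pparg and Ctsk were higher and Plet1 was lower. Ptprc, the leukocyte antigen CD45, was at 0.0566 to 0.0830 TPM in controls and 0.156 to 0.237 TPM in knockouts. The part of these cells in the Ccl6 values was not tested. The abundant ligands Cxcl5, Cxcl3, Cxcl1 and Cxcl2 had knockout values inside the range set by the 2 controls, and so had Cxcl16 for 1 of its 2 knockouts. Cxcl15 was at 4824 and 1513 TPM in controls and 6879 and 7014 TPM in knockouts (1.36 ± 0.58, adjusted p 0.168). Ccl20, at 262 and 199 TPM in controls and 174 and 268 TPM in knockouts, did not pass. Cxcr4 was at 2.56 and 9.21 TPM in controls and 1.01 and 1.41 TPM in knockouts (−1.45 ± 0.55, adjusted p 0.14).

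Ligand and receptor genes outside these symbols were read from a list of 12, holding the platelet, fractalkine and lymphotactin chemokines, their receptors and the atypical receptors that take up ligands without G protein signalling. At 6 days 2 of 12 rose, the atypical receptor Ackr1 of venules and red cells (1.73 ± 0.27, adjusted p 0.0124) and the platelet chemokine Pf4 (0.99 ± 0.17, adjusted p 0.0154), and 0 fell. Of all tested genes 3.16% rose and 3.79% fell there. At 6 months 3 of 12 rose and 6 fell, beside 15.9% and 13.9% of all tested genes. Those with the smallest adjusted p were the scavenging receptor Ackr2 (−0.77 ± 0.082, adjusted p 3.86e-05), the dendritic cell receptor Xcr1 (1.17 ± 0.16, adjusted p 0.000222), the platelet chemokine Ppbp (−1.25 ± 0.23, adjusted p 0.00171) and the endothelial receptor Gpr182 (−0.58 ± 0.12, adjusted p 0.0032). In sorted AT2 cells 0 of 3 and in organoids 0 of 4 tested genes of this list passed (0 and 3 at unadjusted p under 0.05 in limma). Of genes that signal behind chemokine receptors, 5 of 8 rose at 6 months, beside 15.9% of all tested genes. Rgs1, a regulator of G protein signalling in leukocytes, was among them at 2.86 ± 0.25, adjusted p 7.50e-06. Of the same list 0 of 8 rose at 6 days, 1 of 5 in sorted AT2 cells and 0 of 6 in organoids (2 of 8 and 1 of 6 at unadjusted p under 0.05 for the counts of 0, in limma).

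Sites that pair with the let-7 seed were searched in the 3′ UTRs of the family. The longest annotated 3′ UTR (GENCODE M21, GRCm38, at least 50 bases) held the 7-base site CTACCTC or TACCTCA, or both joined as the 8-base site CTACCTCA, in 7 of 43 members with such a UTR (16.3%) and in 3129 of 20659 genes (15.1%). The 8-base site occurred in 1 member, Ccr7, and in 3.11% of genes. The site of Ccr7 and those of 2 of the members that rose at 6 months are shown, with the site in capitals in 30 bases:
Ccr7 (8-base site): cccacttataaCTACCTCAaccaaagctgt
Cxcl12: gggtgaactacCTACCTCtcctcaagacag
Cxcl16: accctttgcctCTACCTCctagattctgcg
Further sites lie in Ccl22, Ccr9 and Cxcr2. In sorted AT2 cells, where the microRNAs were deleted, Ccr7 was at 0.606, 0.200 and 0.171 TPM in controls and 1.41, 0.869 and 0.891 TPM in knockouts, below the filter, so that it was not tested, and Cxcl16, at 68.1, 90.7 and 91.3 TPM in controls and 94.3, 75.0 and 73.8 TPM in knockouts, missed the threshold. Cxcl12 missed it in sorted AT2 cells too (0.60 ± 0.29, adjusted p 0.221), and its genotypes overlapped. The pan-leukocyte sum given above was higher in the same knockout pools, and its part in the Ccr7 values was not tested. Ccl6, Cxcl3 and Ccl27a, which passed in sorted AT2 cells, are not among the 7.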

How the data were processed

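RNA was read as non-stranded poly(A) TruSeq libraries, per the labels. The authors deposited 4 tables of TPM, values scaled to one sum per library, which hold 24 libraries, and the submitters' processing notes name GRCm38. Aligner, quantifier and gene models: not given in the sources used here. Library sums were 999919.8 to 999972.4 TPM. Depth and counting error are unknown, and no interval is given for them.

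Of 24972 rows per table, 2 that shared a symbol were left out. The TPM of each table were fitted in limma 3.58.1 (R 4.3.3) as log2(TPM + 1), without libraries of other tables. Genotype was the sole term, the variances were moderated with a trend, tests were two-sided, and p-values were adjusted by Benjamini and Hochberg over every gene tested (threshold 0.05). A gene was tested with at least 1 TPM in as many libraries as the smaller group. Differences between comparisons, which share no library, were differences of the limma fold changes over the root of their summed squared SEs, adjusted over the genes tested in both. Fits were tested on simulated data before use. Coordinates and 3′ UTRs came from GENCODE M21, promoters and microRNAs from RefSeq on GRCm38.p6.

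The members, gene lists and marker lists were chosen with earlier results of these data known. Members that passed in any comparison, the 5 highest ligands and receptors of each control group and up to 4 genes of a list by adjusted p are named with values. Other members, Relb and marker genes of the organoids were named after their values were seen. Some items are not reported here, and counts over the family include them. The settings varied were the pseudocount (0.1), the filter (none, or 5 TPM), scaling by median ratios, quantile normalization, the variance trend (none), weighted libraries, a block for the replicate number, and each library left out.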

Additional observations from a re-analysis of the deposited data

Results flagged for a closer look

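In the lungs at 6 months, where each genotype has 4 libraries, single libraries stood apart from the rest of their group for some members. The gap from the highest or lowest library to its nearest neighbour exceeded Dixon's critical share of the group's range. Normally distributed values pass this limit by chance in about 1 in 20 groups. TPM were taken without logs and need not be so distributed, and the share of flags over all genes was not computed. Of 86 groups examined, 8 were flagged, all for their highest library, and 6 of the 8 were control 4. In control 4 Ccl19 was at 43.0 TPM, Ccl8 at 63.5 TPM, Cxcl13 at 21.5 TPM, Ccl20 at 15.6 TPM, Cxcl9 at 13.6 TPM and Ccr6 at 11.3 TPM. In the knockouts Cxcl13 was at 24.9 TPM in knockout 4, and Ccr7 at 26.8 TPM in knockout 1. Several of these genes belong to lymphoid tissue, among them the B cell attractant Cxcl13 and the B cell receptor Ccr6. B and plasma cell markers summed to 1083 TPM in control 4 and 1047 TPM in knockout 4, beside 394 to 411 TPM in the other controls and 612 to 737 TPM in the other knockouts, and the part of these cells in the values was not tested. Without control 4, Ccl8, Ccl19, Ccl20, Ccl21c, Ccr4 and Cxcr3 passed in addition, all higher in knockouts, and Ccl17 and Cxcr5 no longer passed. Control 4 was the flagged library for Ccl8, Ccl19 and Ccl20, so that leaving it out favours a rise of these genes. The same holds for the other genes that passed in addition. Control 4 was the highest control for Ccl21c (66.7 TPM). Without it the log2 fold change went from 0.79 to 1.01 for Ccl21c, from 0.45 to 0.58 for Ccr4 and from 0.30 to 0.53 for Cxcr3.

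The knockout effect differed between comparisons for 3 members by a test of the difference. For Ccl6 the log2 fold change in whole lung was larger at 6 months than at 6 days by 1.98. For Cxcr1 it was larger by 3.68. For Cxcl17 the log2 fold change in organoids differed from that in sorted AT2 cells by −2.93.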

How the results depend on the processing

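In lungs at 6 months the counts of ligands that rose (15) and fell (3) and of receptors that rose (4) stayed within 1.5 times under every alternative other than leaving out a library, which gave 13 to 18, 2 to 3 and 3 to 6. The 1 receptor that fell became 0 without the filter, without the variance trend or with library weights and 2 after quantile normalization (0 to 1 with a library left out). At 6 days the ligands that rose (8) were 3 without the filter, 5 at 5 TPM and 18 with library weights, which also gave 6 that fell and 4 receptors in each direction. The ligand calls lost without the filter were those of Ccl1, Ccl2, Ccl3, Ccl9 and Cxcl3. Leaving out a library gave 0 to 9 ligands and 0 to 2 receptors that rose and 0 to 2 ligands that fell. Over all genes (447 and 536) the counts were 951 and 850 with median-ratio scaling, 913 and 973 with quantile normalization, 3858 and 4537 with library weights and 41 to 1032 and 51 to 1017 with a library left out, and 323 fell at 5 TPM.

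In sorted AT2 cells the ligands that rose (2) and fell (1) were 1 and 0 without the filter and 0 to 3 and 0 to 2 with a library left out, and 0 fell without the variance trend. Over all genes (802 and 148) the counts were 340 and 30 without the filter, 419 that rose with median-ratio scaling, 399 with quantile normalization, 86 that fell without the trend, and 181 to 929 and 6 to 285 with a library left out. In organoids 0 ligands fell without the filter or after either scaling, 1 rose without the trend or with library weights, and leaving out a library gave 0 to 6 that rose, 0 to 7 that fell and 0 to 1 receptor that fell. Over all genes (27 and 48) the counts were 0 and 0 without the filter, 67 and 116 without the trend, 232 and 427 with library weights, 25 that fell after quantile normalization, and 0 to 3739 and 0 to 3228 with a library left out. Cxcl3 in organoids turned from a log2 fold change of 0.37 to −0.80 without control 2.

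Of the differences, members past the test for 6 months against 6 days were 1 at 5 TPM. For 6 days against AT2 cells they were 1 with median-ratio scaling, and the genes past were 79 with a pseudocount of 0.1, 62 at 5 TPM, 191 with median-ratio scaling and 214 with quantile normalization. For organoids against AT2 cells they were 2 with quantile normalization or without the trend. The cause of these changes was not tested.

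The replicate number was not taken as pairing, since same-numbered libraries did not deviate together in every pair (AT2 correlations ran from −0.17 to 0.17, those of the lungs from −0.15 to 0.0053 at 6 days and from 0.080 to 0.22 at 6 months, and that of organoids was −0.074). At 6 months each library correlated best with its own number, so that pairing is not excluded there. With the replicate number as a block, all 23 member calls at 6 months held, and Ccl8 (adjusted p 0.00075 in limma) and Ccl21c passed too. With the replicate number as a block, 6 ligands rose in AT2 cells, 1 rose and 2 fell in organoids, and over all genes 344 fell at 6 days and 122 rose and 277 fell in organoids.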
